A study of Mus musculus with 6 samples.

Results

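The inflammasome genes described here are Nlrp3, Nlrp1b, Nlrc4, Aim2, Pycard, Casp1, Casp4, Gsdmd and Il18, a set of 9 picked by symbol out of the 24054 genes listed for mouse bone marrow-derived macrophages. All 9 were counted in every library and all 9 passed the filter on low counts that left 12689 genes for testing. The study asked how macrophages with a Kindlin-3 mutation differ from wild-type ones when they meet oxidised low-density lipoprotein (oxLDL). The wild-type group was labelled C57BL/6, WT and the mutant group C57BL/6-Kindlin3-integrin mutant. Marrow cells of both genotypes spent 7 days in medium conditioned by L929 cells, and oxLDL, where given, was present at 50 µg/ml for 24 hours. There were 2 mutant untreated libraries, 2 mutant oxLDL libraries, 1 wild-type untreated library and 1 wild-type oxLDL library. The labels give no age or sex. Nor do they say that the paired mutant libraries had different animals or cultures as their source, so the tests rest on a spread between libraries that may be technical.

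Inflammasomes are protein platforms that macrophages build when a sensor detects infection or damage. NLRP3, NLRP1B and NLRC4 are sensors of the NLR family, and AIM2 senses DNA in the cytosol. Sensors recruit caspase-1, in many cases through the adaptor ASC (encoded by Pycard), and caspase-1 matures the cytokines IL-1β and IL-18 and cleaves gasdermin D, whose freed fragment forms pores in the plasma membrane. Mouse caspase-11, encoded by Casp4, binds bacterial lipopolysaccharide inside the cell and cleaves gasdermin D as well. Cholesterol crystals and oxLDL are known triggers of NLRP3 in macrophages of atherosclerotic lesions, and transcription of Nlrp3 and Il1b is the priming step of that response. RNA levels, which are what was measured, do not show assembly or cleavage.

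Counts assigned to genes ranged from 11281692 to 24273551 per library, and the members had between 82 and 3213 counts in a library. Fermt3, the gene of Kindlin-3, stood at 403 CPM in wild type untreated, at 241 and 249 CPM in mutant untreated, at 188 CPM in wild type oxLDL and at 146 and 153 CPM in mutant oxLDL. CPM are counts scaled by library size and a TMM factor, a correction for composition. The mutant libraries lay below wild type within each treatment, but Fermt3 RNA was present in all of them, so its level alone does not check the genotype label. Of 9 macrophage markers, 8 were in the table and all 8 had counts, with summed levels of 9727 to 29340 CPM. Summed levels of neutrophil markers (10 of 11 in the table) were 53.5 CPM in wild type untreated and 10.3 to 19.5 CPM in the other 5 libraries. Ngp, S100a9 and Ltf were at 12.5, 9.92 and 8.29 CPM in wild type untreated and at most 0.128, 0.212 and 0.0991 CPM elsewhere. Mmp8 was at 8.34 CPM there and 4.36 to 13.2 CPM elsewhere, and Cxcr2 at 5.73 CPM and 2.94 to 5.66 CPM. Lymphocyte markers summed to at most 1.64 CPM, with 5 of them at 0 in all libraries, among them Cd3e, Cd3g, Ncr1 and Nkg7. Dendritic cell markers summed to at most 7.15 CPM, fibroblast markers to at most 2.47 CPM and mast cell markers to at most 0.122 CPM. The 18 pancreatic markers summed to 267 CPM in wild type untreated and to 197 and 158 CPM in mutant oxLDL, against 1.79 to 3.47 CPM in the other libraries. The part of neutrophil and pancreatic RNA in the results below was not tested. In bulk RNA, fewer cells of a type and less RNA per cell cannot be told apart.

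Of the 9 genes, 7 fell with oxLDL in mutant cells: Pycard, Casp4, Il18, Gsdmd, Nlrp3, Nlrp1b and Casp1. Their falls ran from 1.33-fold for Casp1 to 2.37-fold for Pycard. Nlrc4 and Aim2 did not pass the test. Without mutant untreated library 1 the count was 4. The threshold was an adjusted p of 0.05 in edgeR's quasi-likelihood test of 2 libraries against 2. It called 35.6% of all genes tested in either direction and 19.1% as lower. The median log2 fold change was -0.88 over the 9 genes and 0.01 over all genes tested. Across both genotypes, with 3 oxLDL libraries against 3 untreated ones and genotype as a term, 8 of the 9 fell and Aim2 did not pass. That comparison called 40.5% of genes tested, and 21.4% as lower. The 2 comparisons share the mutant libraries. For 6 of the 9, all 3 oxLDL libraries lay below all 3 untreated libraries, which held for 23.3% of genes tested. The 9 genes and the lists below were chosen with earlier results of these data known. The shares of all genes are therefore given as description only.

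**Figure D1:**
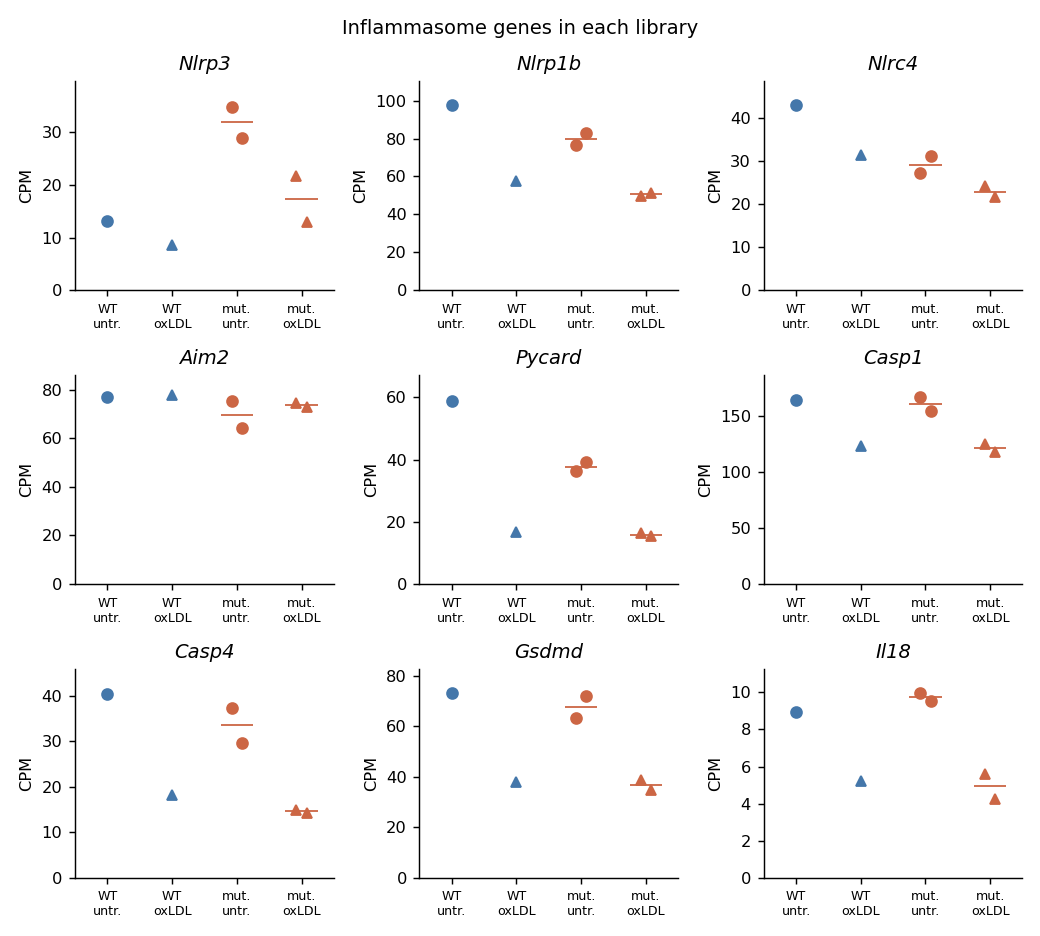
Level of each of the 9 genes (vertical axes, CPM, starting at 0) in the 4 groups. Each point is 1 library, circles are untreated, triangles are oxLDL, blue is wild type (WT), red is mutant (mut.), and the short lines are means of 2 libraries. The oxLDL points of Pycard, Casp4, Gsdmd, Il18, Nlrp1b and Casp1 lie below all their untreated points, while Nlrp3 is higher in the mutant libraries of each treatment.

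Among the sensors, Nlrp3 stood at 13.2 CPM in wild type untreated, 8.63 CPM in wild type oxLDL, 34.9 and 29.0 CPM in mutant untreated, and 21.8 and 12.9 CPM in mutant oxLDL. Within each genotype the oxLDL libraries were the lower ones. The treatment groups nevertheless overlapped, because a mutant oxLDL library was above the untreated wild-type one. In mutant cells Nlrp3 fell by 0.88 ± 0.26 on the log2 scale (SE, edgeR adjusted p = 0.0453), and across genotypes by 0.80 ± 0.21 (edgeR adjusted p = 0.0249). The first of these calls was lost without mutant untreated library 1 (adjusted p = 0.181), mutant untreated library 2 (0.0978) or mutant oxLDL library 2 (0.0585). The second was lost without either mutant untreated library (0.0875 and 0.0695).

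Nlrp1b, the sensor cleaved by anthrax lethal factor in some mouse strains, was measured at 97.9 CPM in wild type untreated, 57.8 CPM in wild type oxLDL, 76.7 and 82.8 CPM in mutant untreated, and 49.6 and 51.5 CPM in mutant oxLDL. All 3 oxLDL libraries were below all 3 untreated ones. Its fall in mutant cells was 1.58-fold (log2 fold change -0.66 ± 0.10 SE, edgeR adjusted p = 0.0044). Of its 75-base stretches, 0.69% also occur in other transcripts, among them those of Nlrp1a, and the other 8 genes share none.

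Nlrc4 answers to flagellin and secretion-system proteins through NAIP receptors. Its levels were 43.1 CPM in wild type untreated, 31.3 CPM in wild type oxLDL, 27.3 and 31.1 CPM in mutant untreated, and 24.3 and 21.6 CPM in mutant oxLDL. The treatment groups overlapped, since the oxLDL wild-type library exceeded both untreated mutant libraries. In mutant cells the log2 fold change was -0.35 ± 0.13 (SE) and did not pass (edgeR adjusted p = 0.0782). Across genotypes Nlrc4 fell by 0.39 ± 0.10 on the log2 scale (edgeR adjusted p = 0.0244). That call was lost without mutant untreated library 2 (log2 fold change -0.34) or mutant oxLDL library 2 (-0.34). It was also lost without either wild-type library, but there the comparison reduces to that of mutant cells, which Nlrc4 had not passed.

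Aim2 had the narrowest range of the 9 genes relative to its level. It stood at 76.8 CPM in wild type untreated, 77.7 CPM in wild type oxLDL, 75.2 and 64.4 CPM in mutant untreated, and 74.4 and 72.7 CPM in mutant oxLDL. The treatments overlapped, while the 4 mutant libraries all lay below the 2 wild-type ones. The log2 fold change with oxLDL in mutant cells was 0.08 ± 0.11 (SE, edgeR adjusted p = 0.620), so a change in either direction was not detectable beyond the spread of these libraries.

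Pycard, which encodes the adaptor ASC, had the largest fall of the 9 genes with oxLDL in mutant cells. It was at 59.0 CPM in wild type untreated and 16.5 CPM in wild type oxLDL, and at 36.4 and 39.1 CPM in mutant untreated and 16.3 and 15.5 CPM in mutant oxLDL. The 3 oxLDL libraries lay close together, whereas the untreated wild-type library was above both untreated mutant ones. Pycard fell by 1.25 ± 0.11 on the log2 scale in mutant cells (SE, edgeR adjusted p = 0.0009) and by 1.44 ± 0.14 across genotypes (edgeR adjusted p = 0.0006). Both calls stood with each library left out in turn.

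Both inflammatory caspases fell with oxLDL, Casp4 by more than Casp1. Casp1 was at 164 CPM in wild type untreated, 124 CPM in wild type oxLDL, 168 and 155 CPM in mutant untreated, and 125 and 118 CPM in mutant oxLDL. No oxLDL library reached an untreated one. The fall in mutant cells was 1.33-fold (log2 fold change -0.41 ± 0.09 SE, edgeR adjusted p = 0.0187). That call was lost without mutant untreated library 1 (0.0797) or mutant oxLDL library 2 (0.101), while across genotypes it stood with each library left out.

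Casp4, the caspase-11 gene, was at 40.5 CPM in wild type untreated, 18.3 CPM in wild type oxLDL, 37.4 and 29.6 CPM in mutant untreated, and 14.96 and 14.27 CPM in mutant oxLDL. The groups did not overlap by treatment. Casp4 fell 2.29-fold in mutant cells (log2 fold change -1.19 ± 0.15 SE, edgeR adjusted p = 0.0027) and 2.26-fold across genotypes (edgeR adjusted p = 0.0006).

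Gsdmd, whose protein is the pore-forming substrate of both caspases, was at 73.3 CPM in wild type untreated, 37.8 CPM in wild type oxLDL, 63.3 and 71.8 CPM in mutant untreated, and 38.7 and 34.5 CPM in mutant oxLDL. Every oxLDL library was below every untreated one. Gsdmd fell 1.84-fold in mutant cells (log2 fold change -0.88 ± 0.12 SE, edgeR adjusted p = 0.0033).

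Il18 encodes the cytokine that caspase-1 matures and was the gene of the set with the fewest counts. Its levels were 8.95 CPM in wild type untreated, 5.24 CPM in wild type oxLDL, 9.97 and 9.55 CPM in mutant untreated, and 5.60 and 4.26 CPM in mutant oxLDL. Again the treatments did not overlap. Il18 fell 1.97-fold in mutant cells (log2 fold change -0.98 ± 0.21 SE, edgeR adjusted p = 0.0147), a call lost without mutant untreated library 1 (0.0693) or 2 (0.0644) but kept across genotypes with each library left out.

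In wild-type cells each treatment has 1 library and there is no replicate check. There 2 of the 9 genes, Pycard and Casp4, were lower with oxLDL by at least 2-fold. At that size and at 5 CPM or more, 11.7% of 9840 genes were lower. Pycard was 3.54-fold lower and Casp4 2.21-fold lower, with a prior count of 2. Gsdmd was 1.94-fold lower, Nlrp1b and Il18 were each 1.69-fold lower, Nlrp3 was 1.52-fold lower, Nlrc4 1.37-fold lower and Casp1 1.33-fold lower. Aim2 was at 76.8 and 77.7 CPM.

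The stretches just before the transcription starts of 4 members are shown because their RNA moved differently: Pycard and Casp4 fell most with oxLDL in mutant cells, Nlrp3 differed most between genotypes, and Aim2 did not pass any test. They come from RefSeq (build GRCm38.p6), which held 11 promoters for 8 of the 9 genes. Each is the 250 bases before a start, read 5′ to 3′ on the gene's strand, at chr7:127993868-127994117 (minus) for Pycard, chr9:5308599-5308848 (plus) for Casp4, chr11:59541319-59541568 (plus) for Nlrp3 and chr1:173420354-173420603 (plus) for Aim2. Capitals mark matches to the degenerate kappa B consensus, the binding motif of NF-kB.
Pycard: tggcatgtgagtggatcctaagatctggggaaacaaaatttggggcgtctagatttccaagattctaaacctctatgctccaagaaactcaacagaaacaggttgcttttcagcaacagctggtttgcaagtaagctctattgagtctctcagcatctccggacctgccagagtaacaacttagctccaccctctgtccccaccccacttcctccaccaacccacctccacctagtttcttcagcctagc
Casp4: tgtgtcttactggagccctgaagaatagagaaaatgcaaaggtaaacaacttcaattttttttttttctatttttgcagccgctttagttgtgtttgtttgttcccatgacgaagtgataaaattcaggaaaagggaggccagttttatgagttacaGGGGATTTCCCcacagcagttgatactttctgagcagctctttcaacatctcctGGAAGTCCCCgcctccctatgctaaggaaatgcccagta
Nlrp3: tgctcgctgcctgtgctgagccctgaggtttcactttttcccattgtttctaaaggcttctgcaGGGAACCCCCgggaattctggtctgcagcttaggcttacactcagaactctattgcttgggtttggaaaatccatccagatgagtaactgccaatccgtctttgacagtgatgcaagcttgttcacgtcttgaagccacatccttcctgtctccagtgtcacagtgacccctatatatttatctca
Aim2: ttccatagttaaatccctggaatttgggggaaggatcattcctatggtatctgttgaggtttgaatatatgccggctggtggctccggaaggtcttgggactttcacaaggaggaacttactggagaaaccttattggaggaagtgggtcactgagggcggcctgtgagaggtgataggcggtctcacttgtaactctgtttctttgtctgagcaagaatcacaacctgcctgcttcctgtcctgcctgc
The kappa B consensus was searched on both strands after the sequences had been seen. It matched both promoters of Casp4 and 1 of Nlrp3, and 7.25% of 32851 RefSeq promoter windows of the same length. The 2 Casp4 windows overlap and hold the same matches, so they are not separate cases. In the Casp4 window shown, 2 overlapping matches start 93 and 92 bases before the start and another starts 39 bases before it. In the Nlrp3 window shown the match starts 186 bases before the start. The other Nlrp3 promoter, at chr11:59542436-59542685 (plus) and not shown, had no match. The stricter NF-kB form, GGGA and TTCC with any 2 bases between them (1.21% of windows), the interferon element, GAAA and GAAA with any 2 bases between them (2.98%), and the STAT element TTCNNNGAA (7.02%), each on both strands, had no match in the 11 promoters. TATAAA (12.4% of windows) matched that of Il18 alone. A match describes letters in a window and shows no binding.

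Across treatments the largest differences between mutant and wild type among the 9 genes were those of Nlrp3, with higher levels in the mutant, and Nlrc4, with lower ones, and neither passed the test. Untreated mutant cells had 2.42 times the wild-type CPM of Nlrp3, and oxLDL-treated mutant cells 2.01 times. Nlrp3 was the only one of the 9 genes above wild type in all mutant libraries of both treatments, a pattern that held for 21.8% of genes tested. Its log2 difference between genotypes was 1.27 ± 0.34 in untreated cells (SE, edgeR adjusted p = 0.0771), 1.01 ± 0.35 with oxLDL (0.280) and 1.14 ± 0.24 across treatments (0.0522). With DESeq2, Nlrp3 passed in untreated cells (adjusted p = 0.0180) and across treatments (0.0007). These contrasts take the spread of wild type, which has 1 library per treatment, from the mutant pairs.

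Nlrc4 was among 5 genes that lay below wild type in all mutant libraries of both treatments, with Nlrp1b, Aim2, Pycard and Casp4, where 22.3% of genes tested did so. Its log2 difference was -0.56 ± 0.15 in untreated cells (SE, edgeR adjusted p = 0.0771), -0.45 ± 0.15 with oxLDL (0.274) and -0.51 ± 0.11 across treatments (0.0534). With DESeq2 the difference across treatments passed (adjusted p = 0.0079).

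Pycard was the single gene of the 9 called between genotypes, in untreated cells, where 7.06% of genes tested were called and 2.82% were called lower. The median log2 difference there was -0.14 over the 9 genes and -0.01 over all genes tested. There it was 1.56-fold lower in the mutant (log2 difference -0.64 ± 0.12 SE, edgeR adjusted p = 0.0403). The call was lost with DESeq2 (adjusted p = 0.0599) and without mutant untreated library 1 (0.138) or 2 (0.104). With oxLDL the log2 difference in Pycard was -0.06 ± 0.13 (SE, edgeR adjusted p = 0.877). The change of the oxLDL response with genotype (the interaction) was 0.59 ± 0.18 on the log2 scale and did not pass (edgeR adjusted p = 0.345), so a genotype difference confined to untreated cells was not shown for Pycard. The sums of neutrophil and of pancreatic markers were also higher in the untreated wild-type library that these values rest on, as given above. Their part in the difference was not tested.

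With oxLDL, edgeR called none of the 9 genes between genotypes, where 0.481% of genes were called. DESeq2 and limma called 0. Across treatments edgeR and limma called none, where 4.03% of genes were called by edgeR. DESeq2 called 2 of the 9 there, and 1500 genes in all. For the interaction edgeR, DESeq2 and limma called none, where edgeR called 0.489% of genes. The genotype log2 differences of Casp1 (-0.03 ± 0.08), Gsdmd (-0.08 ± 0.10) and Il18 (0.02 ± 0.18) across treatments were smaller than their SE.

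**Figure D2:**
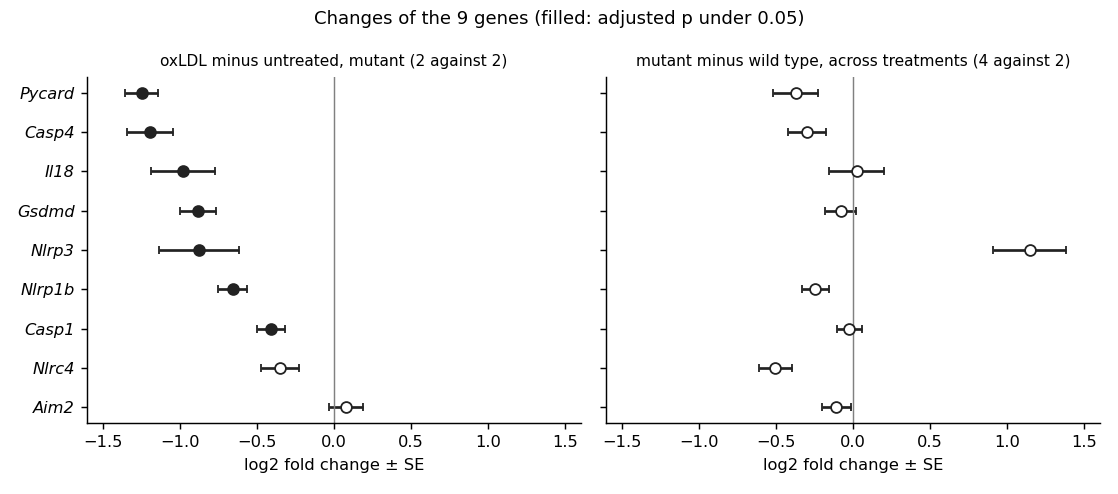
Log2 fold change (horizontal axes, with SE as bars) of the 9 genes with oxLDL in mutant cells (left) and between mutant and wild type across treatments (right), with filled points for an adjusted p under 0.05. On the left 7 of 9 points are filled and all 7 lie below 0, and on the right no point is filled, with Nlrp3 at 1.14 and Nlrc4 at -0.51.

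Levels can be compared between genes only per length. Per kilobase of transcript (GENCODE M21, the longest coding transcript linked to RefSeq), Casp1 had the highest level in every library, with a median of 93.4 CPM per kb, and Nlrp3 the lowest median, 4.35 CPM per kb. Between them came Gsdmd at 28.5, Aim2 at 26.4, Casp4 at 16.7, Nlrp1b at 16.3, Il18 at 8.46, Pycard at 6.96 and Nlrc4 at 6.18 CPM per kb. The ranges over the 6 libraries overlapped between neighbours in this order except in 2 places. Casp1 (79.0 to 112 CPM per kb) lay above Gsdmd (19.3 to 40.9 CPM per kb), and Nlrp1b (12.01 to 23.68 CPM per kb) lay above Il18 (4.95 to 11.6 CPM per kb). The place of Pycard depends on the length used. GENCODE gives its transcript 3800 bases, more than the 2495 bases the RefSeq gene spans. Per kilobase of coding sequence Pycard had the third highest median, 45.7 CPM per kb, after Casp1 at 115.9 and Aim2 at 70.4 CPM per kb. Casp1 stayed highest and Nlrp3 lowest by median on that scale too.

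Around the 9 genes, 65 of 74 other genes of the pathway were tested, from lists of sensors, caspases, regulators, pore and release proteins, and cytokines with their receptors. With oxLDL in mutant cells 30 of the 65 fell and 9 rose. These counts stand beside the 19.1% of all genes called lower and 16.5% called higher in mutant cells. Across genotypes 33 fell and 10 rose, beside 21.4% and 19.1% of all genes.

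Of 19 other sensors tested, 9 fell and 1 rose in mutant cells (median log2 fold change -0.72). Mefv, which encodes the inflammasome sensor pyrin, went from 27.8 and 33.6 CPM to 2.76 and 3.81 CPM in mutant cells and from 13.7 to 3.83 CPM in wild type. Both genotypes were lower with oxLDL, and in mutant cells Mefv fell by 3.23 ± 0.22 on the log2 scale (SE, edgeR adjusted p = 0.0005). Zbp1, a sensor of Z-form nucleic acids, fell from 70.8 and 57.1 CPM to 2.76 and 3.52 CPM in mutant cells and stood at 118 and 5.24 CPM in wild type. Mnda and Mndal, relatives of Aim2, fell by 3.04 and 2.24 on the log2 scale, while Aim2 itself did not pass. Of the 75-base stretches of Mndal, 13.9% also occur in other genes, so its counts are uncertain. That share was not measured for Mnda.

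Among 6 other caspases tested (median log2 fold change -0.35), 3 fell and 3 did not pass. Casp2, which encodes an initiator caspase, was at 33.4 CPM in wild type untreated, 21.8 CPM in wild type oxLDL, 39.1 and 41.4 CPM in mutant untreated, and 26.1 and 28.7 CPM in mutant oxLDL. It fell by 0.55 ± 0.11 on the log2 scale in mutant cells (SE, edgeR adjusted p = 0.0117), a call lost without mutant untreated library 2 (0.0743). Casp8, the initiator caspase of death receptors, was at 118 and 123 CPM in mutant untreated and 99.3 and 106 CPM in mutant oxLDL, and did not pass (edgeR adjusted p = 0.0999).

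Of 28 regulators, 17 fell and 4 rose (median log2 fold change -0.46). Txnip, a thioredoxin inhibitor reported to bind NLRP3, fell from 579 and 483 CPM to 197 and 176 CPM in mutant cells and stood at 546 and 198 CPM in wild type. Nek7, the kinase that NLRP3 needs for assembly, fell 1.34-fold (edgeR adjusted p = 0.0170), a call lost without mutant untreated library 2 (0.0783) or mutant oxLDL library 1 (0.0794). Gbp2, a guanylate-binding protein gene, fell 4.78-fold and Ikbke, an innate immune kinase gene, 4.88-fold. Gbp7 fell 4.21-fold, with 11.4% of its stretches shared with other genes and its counts therefore uncertain. Panx1, a channel for release of ATP, moved the other way, from 7.15 and 6.37 CPM to 42.3 and 41.1 CPM in mutant cells and from 3.79 to 66.1 CPM in wild type. It rose 6.19-fold in mutant cells (edgeR adjusted p = 0.0003).

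Of 5 pore and release genes tested, 1 rose and 4 did not pass (median log2 fold change 0.23). Ninj1, whose protein ruptures the membrane of dying cells, rose from 50.5 and 47.9 CPM to 136 and 156 CPM in mutant cells, and was at 55.8 and 212 CPM in wild type. Gasdermin E, listed as Dfna5, was at 6.00 and 7.22 CPM in mutant untreated and 8.44 and 9.86 CPM in mutant oxLDL (edgeR adjusted p = 0.104). Ninj1 thus rose 2.96-fold in the same mutant libraries in which Gsdmd fell.

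Of 7 cytokine and receptor genes tested, 3 rose and 1 fell in mutant cells (median log2 fold change -0.30). Il1b, the other cytokine matured by caspase-1, had 10.06 and 11.96 CPM in mutant untreated and 0 and 0.594 CPM in mutant oxLDL, and 5.52 and 0.0639 CPM in wild type. It fell in mutant cells (edgeR adjusted p = 0.0051), and the size of the fitted change depends on the prior count because 1 library had no count. Il1a, the IL-1 cytokine that needs no caspase-1 cleavage for activity, went from 1.5 and 0.708 CPM to 10.4 and 4.85 CPM, a rise of 2.82 ± 0.54 on the log2 scale (SE, edgeR adjusted p = 0.0107) that did not pass without mutant untreated library 2 (0.0631). Il1r1, the IL-1 receptor gene, rose from 11.5 and 7.57 CPM to 91.7 and 82.7 CPM in mutant cells and was at 0.563 and 1.02 CPM in wild type. Il18bp rose 1.57-fold (edgeR adjusted p = 0.0368), a call lost with DESeq2 (0.0517) and without mutant untreated library 2 (0.146) or mutant oxLDL library 1 (0.0710).

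**Figure D3:**
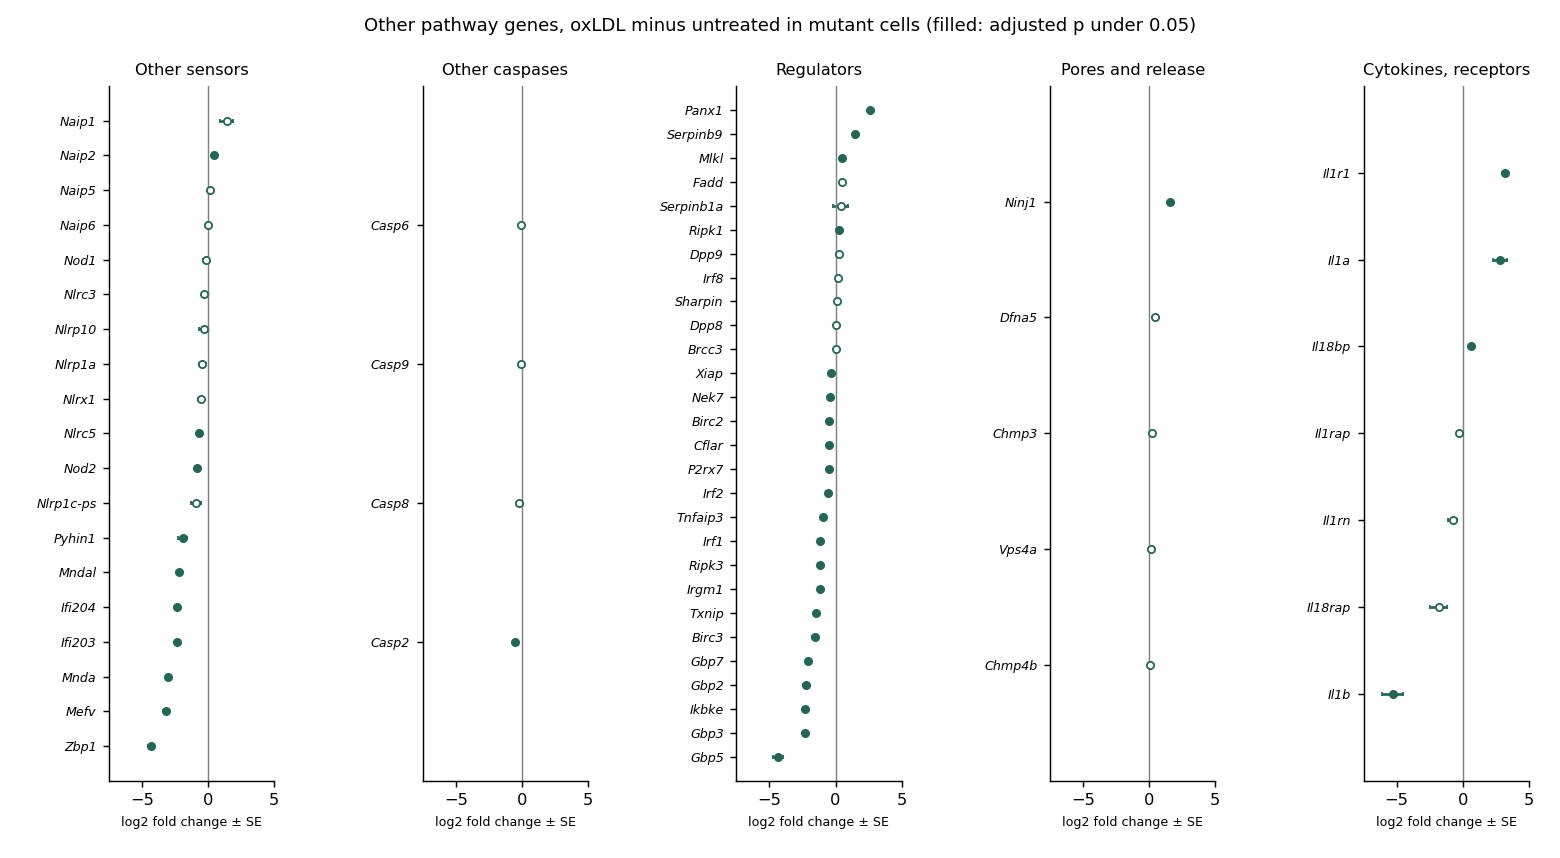
Log2 fold change with oxLDL in mutant cells (horizontal axes, SE as bars) for 63 of the 65 other pathway genes tested, 1 gene per row in 5 panels by list, with filled points for an adjusted p under 0.05. Filled points lie below 0 for 28 genes and above 0 for 9, among them Panx1, Ninj1, Il1a and Il1r1.

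Between genotypes, 4 of the 65 were called across treatments, where 4.03% of all genes tested were called, so the count is close to that share and the genes are given as values. Il1r1 was higher in the mutant, by 5.61 ± 0.50 on the log2 scale (SE, edgeR adjusted p = 0.0099), a call lost without mutant untreated library 2 (0.0643). Il18bp, the secreted decoy that binds IL-18, was lower. Its level was 42.7 CPM untreated and 56.4 CPM after oxLDL in wild type, and 13.4 and 9.69 CPM untreated and 19.1 and 16.9 CPM after oxLDL in the mutant. The genotypes did not overlap. Its difference was 3.41-fold (log2 difference -1.77 ± 0.15 SE, edgeR adjusted p = 0.0095), whereas Il18 itself differed by 0.02 ± 0.18. Naip5, the flagellin receptor that pairs with Nlrc4, was higher in the mutant by 0.45 ± 0.09 on the log2 scale (edgeR adjusted p = 0.0479). That call was lost without any one of the 6 libraries (adjusted p between 0.0667 and 0.160), and 23.8% of the stretches of Naip5 are shared with other genes. Zbp1 was 1.78-fold lower in the mutant (edgeR adjusted p = 0.0384), a call lost without wild type untreated, either mutant untreated library or mutant oxLDL library 1 (adjusted p between 0.0766 and 0.254).

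The pattern over the 6 libraries was compared, as a description, by Pearson's r of log2 CPM among 9699 genes with a mean of at least 5 CPM. The points share libraries, depth and the 2 treatments, so r is high for many genes. Pycard had 842 genes at r of 0.95 or more, Nlrp1b 788, Gsdmd 660, Casp4 559, Casp1 481 and Il18 299. Nlrp3 had 147, Nlrc4 74 and Aim2 8. The genes nearest to Nlrp3 were Depdc1a (0.996) and Mki67 (0.994), both known as genes of dividing cells. The gene nearest to Pycard was Tbc1d2b (0.999), and those nearest to Casp1 were Tlr8 and Cybb (both 0.999). Among the 9 genes the highest r was between Nlrp1b and Pycard (0.985), and the lowest between Nlrp3 and Aim2 (-0.53).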

How the data were processed

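RNA of 6 libraries in 4 groups was analysed. The authors deposited expected counts from RSEM 1.2.15 after Bowtie2 2.1.0, and a normalised signal from edgeR, as the submitters' processing notes list these tools. The build they name is hg19, but the symbols are mouse. The mouse build is therefore not given in the sources used here. Once the scaling of the signal was undone, the recovered reads were whole (100.0% of values, within a relative tolerance of 1e-06) and equal to the rounded counts (100.0%).

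Expected counts were rounded and tested with edgeR 4.0.16 (R 4.3.3, TMM factors, filterByExpr, quasi-likelihood F-test, Benjamini-Hochberg adjustment over 12689 genes, called under 0.05). A model of 4 group means gave oxLDL in mutant cells, genotype within each treatment and the interaction. An additive model gave oxLDL across genotypes and genotype across treatments. An SE is approximate, the size of a log2 fold change over the square root of F. Wild-type oxLDL, with 1 library per arm, was described by size. Alternatives were DESeq2 1.42.0, limma 3.58.1 (pseudocount 1), other scaling, no filter, a replicate block and leaving out libraries, and the fit was tested on simulated data. Named genes of the other lists are those with the smallest p plus 7 set genes. A few of them are not reported here. Members and lists were chosen with earlier results of these data known.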

Additional observations from a re-analysis of the deposited data

How the results depend on the processing

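For oxLDL, 7 of the 9 genes were called in mutant cells and 8 across genotypes. These numbers were the same with DESeq2, limma, RLE factors and no filter on low counts. A fit of the reads recovered from the deposited signal was added after seeing the data. Those reads are identical to the input of the main fit, so the same genes had to be called and this is no check. With 1 library left out the counts were 4 to 7 and 6 to 8, and over all genes 2626 to 4529 and 3480 to 4529 were called. With a replicate block (the number in the mutant titles) they stayed at 7 and 8, with 5084 and 4765 genes called. The mutant libraries share only a number, and the deviations of the same-numbered libraries had r = 0.204 over genes.

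Genotype counts depended more on the settings. Without the filter 3 members and 2438 genes (896 with it) were called in untreated cells, 1 member and 975 genes (61) with oxLDL, 2 members and 1391 genes (512) across treatments, and 550 genes (62) for the interaction. DESeq2 called 393 genes with oxLDL, 2 members and 1500 genes across treatments and 221 genes for the interaction. With 1 library left out the members called were 0 to 3 in untreated cells, 0 to 1 with oxLDL and 0 to 1 across treatments, and the genes 80 to 1822, 5 to 473 and 8 to 876, with 19 to 240 for the interaction. The causes of these shifts were not tested. Wild-type oxLDL, with 1 library per arm, was described by size only. There the 2 members at least 2-fold lower stayed at 2 with a prior count of 0.5 or a floor of 1 CPM.

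The direction turned only with a library left out, and only for values that did not pass (adjusted p over 0.86). Over the libraries left out, the log2 difference of Aim2 ran from -0.027 to 0.21 for oxLDL in mutant cells, from -0.012 to 0.12 across genotypes and from -0.035 to 0.20 for the interaction, each below 0 without mutant untreated 2. Casp1 ran from -0.10 to 0.025 for genotype in untreated cells, from -0.063 to 0.023 with oxLDL, from -0.052 to 0.0011 across treatments and from -0.041 to 0.084 for the interaction (-0.038 without mutant oxLDL 1). Il18 ran from -0.30 to 0.10 for genotype with oxLDL and from -0.079 to 0.12 across treatments, with -0.0082 without mutant untreated 1 and -0.047 without mutant oxLDL 1. Gsdmd ran from -0.13 to 0.045 for genotype with oxLDL and from -0.015 to 0.18 for the interaction. The interactions of Nlrp3 and Casp4 ran from -0.70 to 0.061 and from -0.20 to 0.15.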
